A study of Mus musculus with 15 samples.

Results

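The genes described here encode 6 binding proteins of the insulin-like growth factors (IGFs), namely Igfbp2, Igfbp3, Igfbp4, Igfbp5, Igfbp6 and Igfbp7. They were chosen by symbol from a table of 23352 genes, and all 6 were expressed highly enough to be tested among 11945 genes. The samples were C2C12 cells, a mouse line of skeletal muscle precursors, all transduced with lentivirus. One group carried wild-type MLX (MLX-WT), one carried MLX-DN, labelled dominant negative, and one carried a hairpin that targets Mlx by RNA interference (MLX shRNA). A vector expressing only GFP (GFP control) served as one control and a non-targeting hairpin (NT shRNA) as the other, with 3 libraries in each of the 5 groups. MLX is a transcription factor that pairs with MondoA, ChREBP and MAD proteins on E-box DNA and is known for its part in the response of genes to glucose. The promoters that drive the constructs, the hairpin sequences and the time of harvest are not given in the sources used here.

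IGFs act on muscle precursors through the IGF-1 receptor and drive both their growth and their differentiation. The IGF-binding proteins are secreted, hold IGFs with an affinity like that of the receptor, and so decide how much ligand is free. Igfbp3 and Igfbp5 can form a large complex with IGF and the acid-labile subunit. Igfbp2 carries an integrin-binding RGD motif, Igfbp4 is mainly inhibitory and is opened by the protease pappalysin, and Igfbp6 prefers IGF-II. Igfbp7 shares the N-terminal domain but binds IGFs weakly. Igfbp5 is known as the main binding protein that muscle precursors secrete as they differentiate.

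Levels are given as FPKM, fragments per kilobase of transcript, scaled to the number of mapped fragments, so that they can be compared between genes. Log2 differences are between means of the deposited values, which were read as log2(FPKM + 2), and they understate changes of low genes. A difference was called when limma gave a Benjamini-Hochberg adjusted p under 0.05 over all tested genes. Depth, estimated from the steps between low values, was 37.0 to 82.5 M reads per library. Mlx itself averaged 17.1 ± 0.516 FPKM (SD over 3 libraries) in GFP control cells and 17.1 ± 0.778 in NT shRNA cells. Mlx reached 644 ± 11.6 FPKM in MLX-WT cells and 394 ± 8.76 in MLX-DN cells, and it was down to 3.21 ± 0.645 in MLX shRNA cells. Of 9 myoblast markers 8 were tested, with Myod1 at 58.5 to 95.2 FPKM over the libraries. All 13 listed markers of differentiating muscle found in the table were tested as well, and Myog, a gene switched on when myoblasts leave the cell cycle, lay between 442 and 718 FPKM. The summed level of the differentiation markers was 11105 to 19157 FPKM, so the cells labelled myoblasts carried much RNA of muscle fibre genes. Markers of fat cells summed to at most 0.519 FPKM, and those of endothelium to at most 0.490. Macrophage markers summed to at most 5.80 FPKM, reached in MLX-DN cells, where Ptprc was at 4.39 to 4.74 FPKM in the 3 libraries and at most 0.00989 in all others. Nothing in the labels tells if replicate libraries were grown as separate cultures. The p-values thus refer to the spread among these libraries, which may be technical.

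Igfbp2 had the widest range of the family, with group means 15.2-fold apart. Its FPKM was 19.9, 19.7 and 21.3 in the 3 GFP control libraries and 152, 161 and 154 with NT shRNA. MLX-WT libraries had 110.5, 103 and 108, MLX-DN libraries 102, 108 and 95.2, and MLX shRNA libraries 291, 322 and 313. Every other group lay far above the GFP control, MLX shRNA lay far above every other group, and MLX-WT and MLX-DN overlapped. Only 7 of the 11945 tested genes had a wider range of group means on the log2 scale than Igfbp2 (3.80, against a median of 0.42 over tested genes). From the top, the order of means was MLX shRNA, NT shRNA, MLX-WT, MLX-DN and GFP control. MLX-WT and MLX-DN, neighbours in that order, did not differ beyond their spread (-0.07 log2 for MLX-DN against MLX-WT, 95% interval -0.17 to 0.02, adjusted p = 0.159), but without MLX-DN replicate 2 the difference was -0.12 and was called (adjusted p = 0.0368). In bulk RNA, fewer cells that express a gene and less RNA of it per cell cannot be told apart.

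Against the NT shRNA control, Igfbp2 rose by 0.98 log2 with MLX shRNA (SE 0.0464, adjusted p = 4.52e-11), a 1.98-fold difference in mean FPKM. Against the GFP control, Igfbp2 was 5.27-fold higher with MLX-WT (2.29 log2, adjusted p = 1.87e-15), and with MLX-DN it was 2.21 log2 higher (adjusted p = 1.29e-15). Yet the NT shRNA control, with Mlx at the level of the GFP control, was itself 7.67-fold above the GFP control (2.82 log2, adjusted p = 1.05e-16). Against NT shRNA the direction therefore turned, to -0.53 log2 with MLX-WT and -0.61 with MLX-DN (adjusted p = 6.76e-08 and 2.19e-08). The rise with MLX shRNA held against both controls, at 3.80 log2 against the GFP control.

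Igfbp5 was the most abundant member in every group. It measured 233, 229 and 240.0 FPKM in the GFP control and 326, 332 and 327 with NT shRNA. With MLX-WT it measured 289.6, 289 and 297, with MLX-DN 249, 245 and 245, and with MLX shRNA 345, 346 and 333. All neighbouring groups in this order were separate, but the whole range was narrow, with group means 1.46-fold apart. Igfbp5 rose by 0.32 log2 with MLX-WT against the GFP control (SE 0.0226, adjusted p = 5.28e-09) and by 0.07 with MLX-DN (adjusted p = 0.00801), where centring libraries on their medians gave 0.16. NT shRNA was 0.49 above the GFP control (adjusted p = 2.48e-11), and against NT shRNA the values turned to -0.17 with MLX-WT and -0.41 with MLX-DN (adjusted p = 8.13e-06 and 6.09e-10). With MLX shRNA it was 0.54 above the GFP control (adjusted p = 3.31e-12). The rise of 0.06 with MLX shRNA against NT shRNA was near the threshold (adjusted p = 0.0391). It was lost with quantile normalization (0.01 log2, adjusted p = 0.664), without a trend in the variance (adjusted p = 0.0627), in a fit of the compared groups alone (adjusted p = 0.109), with the replicate number as a block (adjusted p = 0.0542), and without any of 4 libraries (NT shRNA replicate 1 or 3, MLX shRNA replicate 1 or 2; adjusted p = 0.105, 0.0891, 0.101 and 0.108). Median centring put it at 0.11 instead.

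Igfbp2 and Igfbp5 are direct neighbours among the protein-coding genes of chromosome 1 (RefSeq, GRCm38.p6), and they had the same order of group means. Over the 15 libraries their log2 values correlated at r = 0.86 (rho = 0.98), a description in which the libraries of a group share their construct. No other pair of members came above r = 0.76. The 250 bases before the start of each gene are shown to set this neighbouring pair side by side, and because Igfbp2, the member of widest range, holds the E-box CACGTG of the kind MLX partners bind. The sequences are those of RefSeq on build GRCm38.p6, 5′ to 3′ on the gene's strand, at chr1:72824230-72824479 (plus strand) for Igfbp2 and chr1:72874866-72875115 (minus strand) for Igfbp5. Capitals mark CACGTG.
Igfbp2: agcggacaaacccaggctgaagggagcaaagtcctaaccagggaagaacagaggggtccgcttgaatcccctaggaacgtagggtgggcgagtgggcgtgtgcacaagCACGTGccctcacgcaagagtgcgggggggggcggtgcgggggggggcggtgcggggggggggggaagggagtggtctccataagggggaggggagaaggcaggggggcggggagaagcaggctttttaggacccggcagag
Igfbp5: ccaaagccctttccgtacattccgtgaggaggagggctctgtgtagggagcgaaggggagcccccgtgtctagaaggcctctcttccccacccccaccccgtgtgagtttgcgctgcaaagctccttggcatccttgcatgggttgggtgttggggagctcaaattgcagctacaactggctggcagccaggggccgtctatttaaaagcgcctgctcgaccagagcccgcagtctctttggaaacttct
Both strands were searched in this window for CACGTG, which reads the same on each. Igfbp2 has 1 match, at 142 bases before the start, and its other listed start has none. None of the windows of Igfbp3, Igfbp4, Igfbp5, Igfbp6 and Igfbp7 holds the motif, which is found in 6.02% of 32851 promoter windows of the same length. The longer carbohydrate response element, known as the site of MLX with its glucose-responsive partners, had no match in any window of the 6 genes and is found in 0.0274% of all windows. A match is a run of letters and says nothing about binding in these cells.

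**Figure D1:**
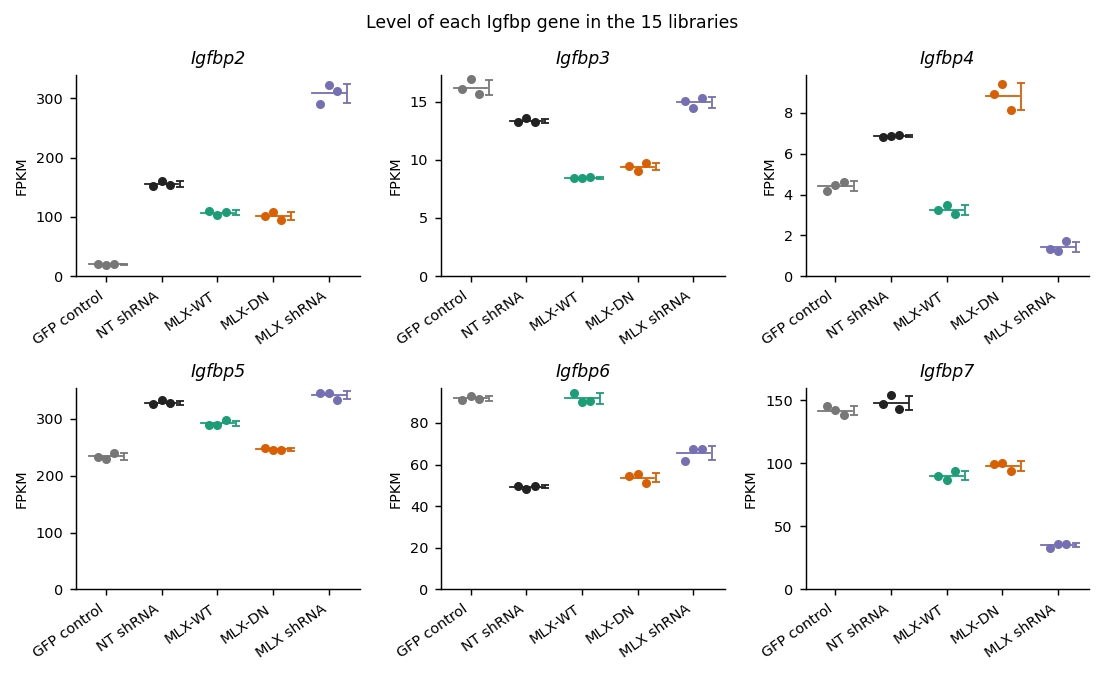
Level of each Igfbp gene in FPKM (vertical axes, starting at 0) in the 5 groups (horizontal axes). Points are libraries, horizontal lines are group means and brackets show the SD (n = 3). Igfbp2 is lowest in the GFP control (20.3 FPKM) and highest with MLX shRNA (309 FPKM), where Igfbp4 and Igfbp7 are lowest.

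Igfbp3, the main carrier of IGFs in blood, lies on chromosome 11 and was lower with both forms of MLX. It measured 16.1, 16.9 and 15.6 FPKM in the GFP control and 13.3, 13.6 and 13.3 with NT shRNA. MLX-WT libraries were at 8.41, 8.40 and 8.53, MLX-DN libraries at 9.47, 9.07 and 9.73, and MLX shRNA libraries at 15.1, 14.4 and 15.3. All 6 libraries with an MLX construct that encodes protein thus lay below all other libraries. Against the GFP control Igfbp3 fell by 0.80 log2 with MLX-WT (SE 0.0311, adjusted p = 3.75e-12) and by 0.67 with MLX-DN (adjusted p = 1.50e-11). Against NT shRNA it fell by 0.56 and 0.43 (adjusted p = 3.73e-10 and 1.32e-08). With MLX shRNA it rose slightly against NT shRNA (0.14 log2, adjusted p = 0.000849), while against the GFP control the value was -0.10 (adjusted p = 0.00686), a call lost with median centring (-0.05, adjusted p = 0.156). The nearest protein-coding gene beside Igfbp3, Igfbp1, a liver-type member, did not exceed 0.00790 FPKM in any library and was not tested.

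Igfbp4, on chromosome 11 as well, was the least abundant member, and it was lowest with the hairpin against Mlx and highest with the dominant-negative form. It measured 4.18, 4.47 and 4.63 FPKM in the GFP control and 6.84, 6.87 and 6.90 with NT shRNA. MLX-WT gave 3.22, 3.49 and 3.02, MLX-DN gave 8.90, 9.41 and 8.12, and MLX shRNA gave 1.31, 1.25 and 1.71. No groups overlapped, and the order from the top was MLX-DN, NT shRNA, GFP control, MLX-WT and MLX shRNA. With MLX-DN Igfbp4 rose by 0.75 log2 against the GFP control (SE 0.0526, adjusted p = 2.21e-09) and stood 0.28 above NT shRNA (adjusted p = 0.000198). With MLX-WT it fell against both controls (-0.29 log2 from the GFP control and -0.76 from NT shRNA, adjusted p = 0.000134 and 4.69e-09). With MLX shRNA it fell against both controls too, with -1.38 log2 against NT shRNA (adjusted p = 3.64e-12) and -0.91 against the GFP control (adjusted p = 1.90e-10). In mean FPKM the first of these is a 4.83-fold fall, and with an offset of 0.1 in place of 2 the value was -2.21 log2. The lowest library corresponds to about 178 reads on the longest transcript, so counting error is small beside these differences.

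Igfbp6, which prefers IGF-II and lies on chromosome 15, was high in the GFP control and with MLX-WT and low elsewhere. Its FPKM was 90.8, 93.1 and 91.5 in the GFP control and 49.6, 48.4 and 49.9 with NT shRNA. MLX-WT libraries had 94.6, 90.0 and 90.8, MLX-DN libraries 54.6, 55.6 and 51.1, and MLX shRNA libraries 61.8, 67.5 and 67.3. The GFP control and MLX-WT overlapped and no others did. Between them the log2 difference was 0.00 (95% interval -0.08 to 0.07, adjusted p = 0.983). MLX-DN was 0.75 log2 lower than the GFP control (SE 0.0352, adjusted p = 1.73e-11), as NT shRNA was by 0.87 (adjusted p = 4.35e-12). Against NT shRNA, the rise was 0.87 in MLX-WT, 0.12 in MLX-DN and 0.40 in MLX shRNA cells (adjusted p = 8.14e-12, 0.00666 and 7.70e-08). With median centring the value for MLX-DN there was 0.21. MLX shRNA was 0.48 below the GFP control. The summed level of the 13 differentiation markers ran, from the top, 18880 to 19157 FPKM in MLX-WT cells, 17614 to 17889 in GFP control cells and 15529 to 16812 in MLX shRNA cells. It was 14349 to 14625 in MLX-DN cells and 11105 to 11367 in NT shRNA cells. Mylpf was the largest part of this sum. Its mean, like those of Myh3, Myh8, Acta1, Actc1, Tnnt3, Tnnc2, Myl1 and Neb, was lowest in NT shRNA cells. The other markers differed. Myog was lowest in the GFP control (445 ± 3.70 FPKM), at 657 ± 9.18 in NT shRNA cells and, like Neb, highest in MLX-DN cells (706 ± 15.6). Ttn was also lowest in the GFP control, Tmem8c in MLX-WT and Ckm in MLX-DN cells. The part of these markers in the level of Igfbp6 was not tested.

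Igfbp7, on chromosome 5, was lower in all groups with an Mlx construct than in both controls. It measured 145, 142 and 138 FPKM in the GFP control and 147, 154 and 143 with NT shRNA. MLX-WT libraries were at 90.0, 86.7 and 94.2, MLX-DN libraries at 99.4, 100.5 and 93.7, and MLX shRNA libraries at 33.1, 35.8 and 36.0. The controls overlapped each other (0.06 log2 for NT shRNA against GFP, 95% interval -0.02 to 0.14, adjusted p = 0.186), and no library of the other groups reached them. Against the GFP control Igfbp7 fell by 0.64 log2 with MLX-WT (SE 0.0395, adjusted p = 9.29e-10) and by 0.53 with MLX-DN (adjusted p = 4.88e-09). With MLX shRNA it fell by 2.02 log2 against NT shRNA (adjusted p = 9.74e-16), a 4.23-fold fall in mean FPKM. The values against the other control were -0.70, -0.59 and -1.96. Between MLX-DN and MLX-WT the difference was 0.11 (adjusted p = 0.0171), with overlapping libraries, and that call was lost without MLX-WT replicate 2 or MLX-DN replicate 1 or 2 (adjusted p = 0.0877, 0.0573 and 0.0693). In the GENCODE annotation 7.03% of the exon bases of Igfbp7 are shared with Polr2b on the opposite strand, which reached 51.7 FPKM, and whether counting used strand is not given. The other 5 members share no exon bases with another gene. Fibroblasts and smooth muscle also make Igfbp7. Fibroblast markers, 5 of 8 tested and Tcf21 at 0 throughout, summed to 93.1 to 95.6 FPKM in NT shRNA, 76.4 to 77.7 in MLX-WT, 63.4 to 65.3 in GFP control, 49.9 to 52.8 in MLX shRNA and 40.1 to 40.4 in MLX-DN cells. Most of that sum was Ly6a, and Dcn, a fibroblast marker of lower level, went from 16.6 to 17.4 FPKM in the NT shRNA libraries and 9.12 ± 0.188 in the GFP control to 6.55 ± 0.0710 in MLX-WT, 3.56 ± 0.166 in MLX-DN and 0.445 ± 0.0962 in MLX shRNA cells. Pdgfra, Lum, Pi16 and Col15a1 also had their lowest means in MLX shRNA cells, as Igfbp7 did, but Lum and Col15a1 did not exceed 1.06 and 0.123 FPKM. Dpt was instead lowest in the GFP control (0.439 ± 0.0608 FPKM, against 0.647 ± 0.121 in MLX shRNA cells). Ly6a was lowest in MLX-DN cells (33.7 ± 0.633 FPKM, against 48.7 ± 1.87 in MLX shRNA cells). Smooth muscle markers, 4 of 5 tested and Myh11 at most 0.0781, summed to 1621 to 1700 FPKM in GFP control, 1220 to 1227 in MLX-WT, 1098 to 1138 in NT shRNA, 1060 to 1080 in MLX-DN and 756 to 847 in MLX shRNA cells. Nearly all of it was Acta2. Cnn1 had a median of 17.5 FPKM over the GFP control libraries, and averaged 10.7 ± 0.131 in NT shRNA, 8.48 ± 0.399 in MLX-DN, 6.84 ± 0.187 in MLX-WT and 2.22 ± 0.280 in MLX shRNA cells. Lmod1 stood at 2.43 ± 0.121 FPKM in NT shRNA and 0.444 ± 0.0539 in MLX shRNA cells, and was likewise highest in GFP control cells. Smtn was highest there too, but its lowest mean was in MLX-DN cells. Its libraries ranged from 28.7 to 30.5 FPKM in MLX-DN cells and from 29.4 to 31.9 in MLX shRNA cells, which overlap. In NT shRNA cells Smtn lay between 33.4 and 34.6 FPKM. Osteoblast markers, 3 of 6 tested, summed to 10.2 to 17.6 FPKM over the control libraries and 64.8 to 75.4 over the libraries of the Mlx constructs, in the latter mostly from Bglap2, a gene with close copies. The part of these markers in the level of Igfbp7 was not tested either.

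**Figure D2:**
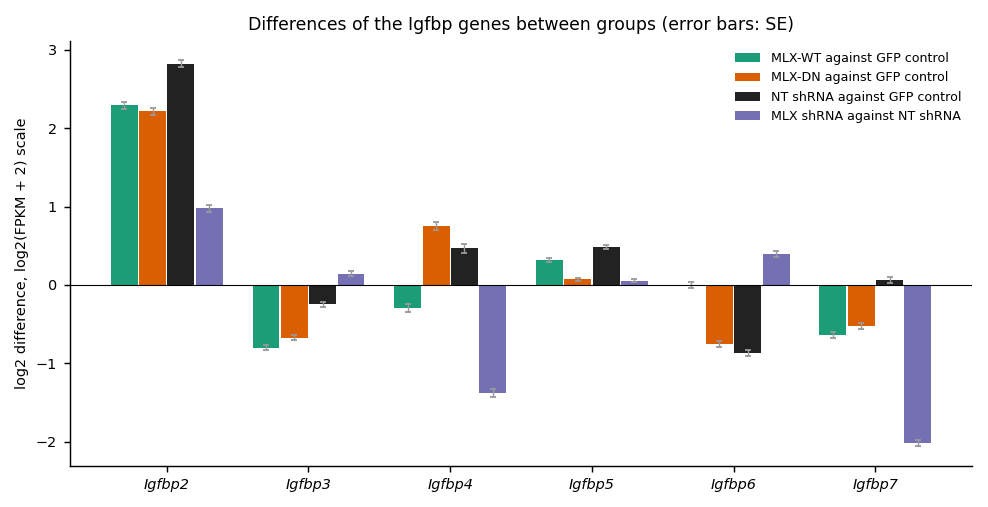
Log2 differences of the 6 genes (vertical axis, log2(FPKM + 2) scale) in 4 comparisons, with the SE as error bars. The largest bar is Igfbp2 in NT shRNA against the GFP control (2.82), and the lowest is Igfbp7 in MLX shRNA against NT shRNA (-2.02).

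Because most expressed genes differed between any pair of groups, a call by itself says little, and size and direction carry the account. With MLX-WT against the GFP control, 5 of the 6 members were called, as were 70.3% of all tested genes. Igfbp2 and Igfbp5 were higher (27.6% of tested genes were) and Igfbp3, Igfbp4 and Igfbp7 were lower (42.7% were). The members' median was -0.15 log2 and that of all tested genes -0.05. With MLX-DN against the GFP control all 6 were called, beside 81.4% of tested genes, with Igfbp2, Igfbp4 and Igfbp5 higher (background 32.6%) and Igfbp3, Igfbp6 and Igfbp7 lower (48.8%). The medians there were -0.23 and -0.08. With MLX shRNA against NT shRNA all 6 were called, beside 70.1% of tested genes, with Igfbp2, Igfbp3, Igfbp5 and Igfbp6 higher (30.8%) and Igfbp4 and Igfbp7 lower (39.3%), and medians of 0.10 and -0.02. The share of all calls that were higher depends on scaling, at 39.3%, 40.0% and 43.9% in these comparisons as deposited and 54.4%, 51.8% and 55.7% after median centring. For MLX-WT and MLX-DN against NT shRNA these shares went from 36.7% to 53.7% and from 30.1% to 52.7%. No called direction of a member turned under the 25 alternatives run.

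Between the controls, 5 of 6 members were called, with Igfbp2, Igfbp4 and Igfbp5 higher with NT shRNA (37% of tested genes were) and Igfbp3 and Igfbp6 lower (37.1%), beside 74.1% of tested genes called. For Igfbp2 and Igfbp5 this difference was larger than those between each MLX form and either control, and for Igfbp6 it was as large as the largest of them. The parts of the vector and of the hairpin in it cannot be told apart. The construct groups were therefore set against each control. Against NT shRNA all 6 members were called with MLX-WT, beside 69.9% of tested genes, and all 6 with MLX-DN, beside 69.7%. With MLX shRNA against the GFP control all 6 were called, beside 80% of tested genes. Igfbp3 with MLX-WT and MLX-DN, Igfbp4 and Igfbp7 with all 3 constructs, and Igfbp2 and Igfbp5 with MLX shRNA had the same direction against both controls, with the exceptions given above for the call of Igfbp5. Igfbp2 and Igfbp5 with MLX-WT and MLX-DN, Igfbp6 with MLX-DN and MLX shRNA, and Igfbp3 with MLX shRNA had opposite directions against the 2 controls, and Igfbp6 with MLX-WT was called only against NT shRNA. The comparisons of a construct group with each control share that group's libraries. Set directly against each other, MLX-DN and MLX-WT differed in 5 of 6 members, beside 72.1% of tested genes, and Igfbp4 stood 1.04 log2 higher (adjusted p = 1.08e-10) and Igfbp6 0.75 lower (adjusted p = 4.67e-11) with MLX-DN. The effects of the constructs, each against its own control, were compared too. The effects of MLX-DN and MLX shRNA differed in 5 members, beside 74.8% of tested genes, and those of MLX-WT and MLX shRNA in all 6, beside 65.4%. The widest gap was that of Igfbp4, which rose with MLX-DN and fell with MLX shRNA (2.13 log2, SE 0.0743).

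**Figure D3:**
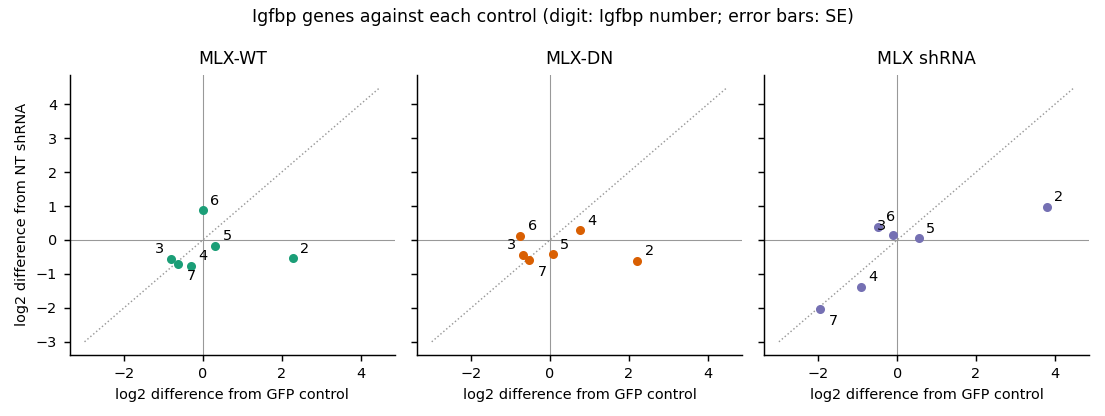
Log2 difference of each member from the GFP control (horizontal axes) and from NT shRNA (vertical axes) for the 3 construct groups, with digits naming the Igfbp gene and SE bars smaller than most points. Igfbp2 lies at 2.29 and -0.53 with MLX-WT, while Igfbp7 with MLX shRNA lies near the dotted line of equal values at -1.96 and -2.02.

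The make-up of the family's RNA also shifted. The summed FPKM of the 6 genes was lowest in MLX-DN (502 to 527) and GFP control cells (505 to 512), higher in MLX-WT cells (580 to 602), and highest in NT shRNA (694 to 716) and MLX shRNA cells (747 to 787). Igfbp5 held a steady share of this sum, from 44.5% ± 1.44 with MLX shRNA to 49.3% ± 0.647 with MLX-WT (mean ± SD, n = 3). The share of Igfbp2 went from 3.99% ± 0.151 in the GFP control to 22.2% ± 0.315 with NT shRNA and 40.2% ± 1.12 with MLX shRNA. That of Igfbp7 moved the other way, from 27.9% ± 0.751 in the GFP control and 21.1% ± 0.478 with NT shRNA to 4.56% ± 0.137 with MLX shRNA. Shares are parts of a whole, so one falls when other members grow. Between the controls the level of Igfbp7 itself did not fall (142 ± 3.38 FPKM with GFP, 148 ± 5.57 with NT shRNA). Igfbp6 made up 18.1% ± 0.329 in the GFP control and 7.03% ± 0.231 with NT shRNA. Igfbp3 and Igfbp4 together never passed a few percent, with Igfbp4 at 0.186% ± 0.0334 with MLX shRNA and 1.70% ± 0.0848 with MLX-DN. Shares of FPKM are per length of transcript and say nothing of protein.

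**Figure D4:**
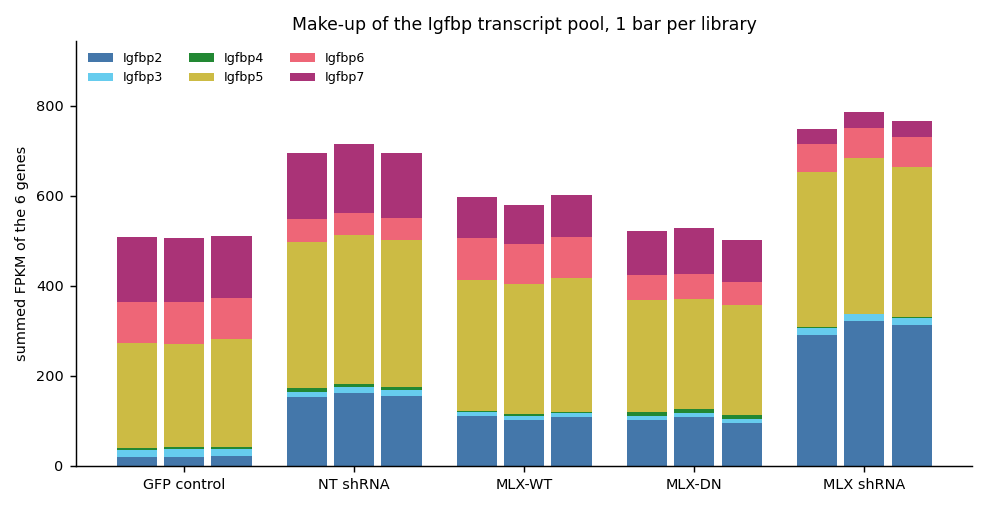
Summed FPKM of the 6 Igfbp genes (vertical axis), 1 bar per library, with the 5 groups along the horizontal axis and colours for the genes. The Igfbp2 part is smallest in the GFP control (3.99% of the sum) and largest with MLX shRNA (40.2%), where the Igfbp7 part shrinks to 4.56%.

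The ligands and receptors that the binding proteins act on were measured in the same libraries. Igf2, the main IGF of differentiating C2C12 cells, was most abundant in the GFP control, at 173 ± 1.78 FPKM, followed by MLX-WT at 142 ± 1.16 and NT shRNA at 125 ± 0.986. MLX-DN had 67.7 ± 2.23 and MLX shRNA 32.2 ± 0.609 FPKM. The difference from the GFP control was -0.28 log2 in MLX-WT cells (adjusted p = 3.46e-08) and -1.33 in MLX-DN cells (adjusted p = 2.05e-16). MLX shRNA cells differed from NT shRNA cells by -1.89 (adjusted p = 7.05e-18). Igf1 was low throughout, from 2.61 ± 0.0577 FPKM with NT shRNA to 0.143 ± 0.0156 with MLX shRNA, a fall of 1.10 log2 between them (adjusted p = 4.31e-14). Igf1r, the signalling receptor, fell by 0.51 log2 with MLX-WT and by 0.60 with MLX-DN against the GFP control, and by 0.28 with MLX shRNA against NT shRNA (adjusted p = 1.83e-09, 1.14e-10 and 1.58e-06). Igf2r, which clears IGF-II, fell with MLX-WT and MLX-DN (-0.59 and -0.62) and was at -0.04 with MLX shRNA (adjusted p = 0.247). The NT shRNA control was itself below the GFP control for both receptors. Igf1r stood at 3.35 ± 0.193 against 4.78 ± 0.0399 FPKM, and Igf2r at 22.8 ± 0.367 against 29.4 ± 0.436. Igfals, the acid-labile subunit, did not exceed 0.0515 FPKM and was not tested. Of the 9 genes in this list 6 were tested. With MLX-WT 2 were higher and 3 lower, with MLX-DN likewise 2 and 3, and with MLX shRNA none was higher and 4 were lower, beside 70.3%, 81.4% and 70.1% of all tested genes called in these comparisons. Against NT shRNA the counts were 1 and 4 in MLX-WT cells and 0 and 6 in MLX-DN cells. There 69.9% and 69.7% of all tested genes were called, and of those calls only 36.7% and 30.1% were higher, shares that depend on scaling. The list's medians against each construct's own control were -0.20, -0.27 and -0.34, beside -0.05, -0.08 and -0.02 for all tested genes.

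Proteases that cut IGF-binding proteins, with their regulators, formed a list of 28 genes, of which 27 were in the table and 18 were tested. Of these 13 were higher and 3 lower with MLX-WT against the GFP control, 9 and 7 with MLX-DN, and 5 and 12 with MLX shRNA against NT shRNA, with medians of 0.22, 0.03 and -0.43 log2 beside -0.05, -0.08 and -0.02 for all tested genes. The shares of all tested genes called were 70.3%, 81.4% and 70.1%. Against NT shRNA the list gave 8 higher and 9 lower in MLX-WT cells and 2 and 11 in MLX-DN cells. Its medians were -0.05 and -0.12, beside -0.06 and -0.08 for all tested genes. Of all tested genes 69.9% and 69.7% were called there, and of those calls 36.7% and 30.1% were higher. Plau, the urokinase that makes plasmin from plasminogen, rose by 0.62, 0.24 and 1.35 with MLX-WT, MLX-DN and MLX shRNA against their own controls. It reached 131 ± 1.18 FPKM with MLX shRNA. Against NT shRNA, Plau was at 0.32 with MLX-WT and turned to -0.07 with MLX-DN (adjusted p = 3.27e-09 and 0.00947). C1s, a complement protease that cuts IGFBP5 and that has a close copy in the mouse genome, rose by 1.27 and 0.48 and fell by 1.44 log2. The adjusted p-values of these 6 differences were at most 4.00e-08. Pappa (pappalysin) and its inhibitor Stc2 are added for their known action on IGFBP4 and were chosen after their values were seen. Pappa was at 1.37 ± 0.117 FPKM with NT shRNA and 3.01 ± 0.270 with MLX shRNA (0.57 log2, adjusted p = 1.91e-09), and it was 0.24 lower with MLX-DN than in the GFP control (adjusted p = 2.68e-05). Its level was 1.57 ± 0.0459 FPKM in the GFP control, 1.79 ± 0.0305 in MLX-WT and 1.03 ± 0.0461 in MLX-DN cells. Stc2 was 0.915 ± 0.0464 FPKM in the GFP control, 1.79 ± 0.144 in MLX-WT cells, 3.82 ± 0.370 in MLX-DN cells, 4.40 ± 0.489 in NT shRNA cells and 7.11 ± 0.388 in MLX shRNA cells.

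Other secreted proteins share the N-terminal domain of the family. Of 14 listed genes 9 were tested, and 3 were higher and 4 lower in MLX-WT cells, 3 and 5 in MLX-DN cells, and 2 and 6 in MLX shRNA cells, each against its own control. The shares of all tested genes called were 70.3%, 81.4% and 70.1%, and the medians were -0.09, -0.09 and -0.28 log2 for the list and -0.05, -0.08 and -0.02 for all tested genes. Set against NT shRNA, 5 were higher and 4 lower in MLX-WT cells, and 2 and 6 in MLX-DN cells. There 69.9% and 69.7% of all tested genes were called. The list's medians were 0.32 and -0.30, beside -0.06 and -0.08 for all tested genes, so the direction with MLX-WT depended on the control. Nov (CCN3), at 1.14 ± 0.108 FPKM in GFP control cells, was at 7.85 ± 0.261 in MLX-WT cells and at 0.0665 ± 0.00545 in MLX-DN cells (1.65 and -0.60 log2, adjusted p = 9.11e-16 and 6.27e-11). Ctgf (CCN2) fell by 0.57 with MLX-WT and rose by 0.72 with MLX-DN against the GFP control, and fell by 0.28 with MLX shRNA. Htra1, a secreted protease that carries this domain, rose by 1.03 with MLX-WT and fell by 0.27 with MLX-DN and 0.84 with MLX shRNA. NT shRNA differed from the GFP control in Nov by -0.30 and in Ctgf by 1.03 log2, so that Ctgf with MLX-DN stood 0.31 below NT shRNA.

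A search of 9940 genes, all with a mean FPKM of 2 or more, gave the 3 whose log2 values correlated best with each member over the 15 libraries. For Igfbp2 they were Slc7a5 (an amino acid transporter, r = 0.988), Mapk6 (0.988) and Ston2 (0.987). For Igfbp3 they were Wbp11 (0.983), Rhno1 (0.978) and Mta1 (0.972), and for Igfbp4 Serpinb1a (0.986), Coq10b (0.985) and Sertad4 (0.979). Igfbp5 was nearest to Cd63 (0.971), Sgpl1 (0.970) and Tfdp1 (0.969). Igfbp6 was nearest to Apol9b (0.989, a gene with a near-identical copy, so uncertain), Tnnc2 (fast troponin C, 0.986) and Myf5 (a myogenic factor, 0.985). Igfbp7 was nearest to Slc39a1 (a zinc transporter, 0.996), Colec12 (0.992) and Itga11 (a collagen-binding integrin subunit, 0.989). Libraries of a group share their construct, so these values rest largely on 5 group levels, and between 12 and 68 genes came above r = 0.95 for each member.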

How the data were processed

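Messenger RNA from 15 libraries was sequenced after poly(A) selection with a stranded kit, per the labels' protocols. Gene levels came as 1 deposited table, made by the authors, in log2 of FPKM. Tools named by the submitters' processing notes, with no role or version, are STAR, TopHat2 and CASAVA, and the build named is mm9. The counter and its strand setting are not given there or in the labels. As the lowest value was 1 in all 15 libraries, values were read as log2(FPKM + 2). FPKM times transcript length (GENCODE M21) then summed to 0.579 to 0.602 M with mean and 1.09 to 1.12 M with longest lengths, which brackets the 1 M that FPKM should give. Read as 1 + log2(FPKM + 1), every FPKM would halve and the longest lengths would give at most 0.562, with shares and ratios unchanged.

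Depth was the lowest value at which low FPKM of 4718 genes with 1 transcript length fell on whole reads (66.8% to 72.4% within 0.05). Too few fell on whole reads to recover counts, so no count model was used. Replicate pairs differed by more than counting noise (chi-square per gene 2.03 to 8.83). Genes with FPKM of at least 1 in at least 3 libraries entered a two-sided limma test (limma 3.58.1, R 4.3.3). The log2 values went in as deposited, all libraries were fitted together with a mean for each group, and the variance could follow a trend. The fit was also tested on simulated data. Same-numbered libraries of different groups deviated together only weakly (median r = 0.03 over 30 pairs, against -0.005 over 60 pairs with different numbers). Numbers were therefore not taken as pairs. Named were the 6 members, 3 genes of lowest adjusted p in each of 5 lists, Igf1, Igf1r, Igf2r and Igfals, Mlx, and 3 genes most like each member, and 1 gene that this rule names is not reported here. Members, lists and tests were chosen with earlier results of these data known. The offset, the filter, the scaling, the variance model and the libraries fitted were each varied, a replicate block was tried, and every library was left out in turn.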

Additional observations from a re-analysis of the deposited data

Results flagged for a closer look

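The response of most members differed between constructs, each set against its own control, by a test of the difference itself in the limma fit. These effects rest on different controls, which differed from each other in 5 members, so the difference of the controls enters each value. For MLX-DN minus MLX shRNA, 5 of 6 members were called (74.8% of tested genes were), with log2 differences of 1.24 for Igfbp2, -0.81 for Igfbp3, 2.13 for Igfbp4, -1.15 for Igfbp6 and 1.49 for Igfbp7. The adjusted p-values were 1.59e-10, 1.99e-10, 1.10e-12, 1.47e-11 and 2.42e-12. Igfbp3, Igfbp4 and Igfbp6 went in opposite directions with the 2 constructs, each against its own control, while Igfbp7 fell with both and fell further with MLX shRNA. Against a shared control, Igfbp6 went the same way with both constructs, below the GFP control (-0.75 and -0.48) and above NT shRNA (0.12 and 0.40). Igfbp3 was also below the GFP control with both (-0.67 with MLX-DN and -0.10 with MLX shRNA, the latter call lost with median centring). Against NT shRNA Igfbp3 was at -0.43 and 0.14. Set directly against each other, MLX shRNA cells were above MLX-DN cells by 1.59 log2 for Igfbp2, 0.57 for Igfbp3 and 0.28 for Igfbp6, and Igfbp4 and Igfbp7 were at -1.66 and -1.43 (adjusted p at most 4.53e-06). The direction for Igfbp2 is thus reversed in the direct comparison. For Igfbp5 the difference of effects was 0.02 (95% interval -0.05 to 0.08, adjusted p = 0.645). In the direct comparison, Igfbp5 in MLX shRNA cells stood 0.47 log2 above MLX-DN cells (adjusted p = 7.00e-11).

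For MLX-WT minus MLX shRNA all 6 members were called (65.4% of tested genes were). The values were 1.31 for Igfbp2, -0.94 for Igfbp3, 1.08 for Igfbp4, 0.26 for Igfbp5, -0.40 for Igfbp6 and 1.38 for Igfbp7, with adjusted p-values of 1.05e-10, 4.66e-11, 4.76e-09, 3.36e-06, 4.64e-06 and 8.52e-12. Igfbp4 fell with both constructs and Igfbp2 rose with both, by unequal amounts. Directly, MLX shRNA cells differed from MLX-WT cells by 1.51 log2 for Igfbp2, 0.70 for Igfbp3, -0.62 for Igfbp4, 0.22 for Igfbp5, -0.47 for Igfbp6 and -1.32 for Igfbp7 (adjusted p at most 2.68e-07). MLX-WT was therefore the lower of the pair for Igfbp2 and Igfbp5, the reverse of what the effects give, and the higher for Igfbp6, likewise the reverse.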

How the results depend on the processing

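The 72 member results (6 genes in 10 comparisons and 2 differences of effects) were recomputed under 25 alternatives, 15 of which leave out 1 library, and a fit of the 2 groups alone gives no value for the differences of effects. Of 1788 values 1774 kept their direction and their side of the threshold, 12 lost the call, 2 gained one and none reversed a called direction. The calls lost were those of Igfbp5 (MLX shRNA against NT shRNA), Igfbp7 (MLX-DN against MLX-WT) and Igfbp3 (MLX shRNA against the GFP control), given with their values above. A call was gained by Igfbp2 (MLX-DN against MLX-WT, without MLX-DN replicate 2) and by Igfbp5 in the difference of MLX-DN and MLX shRNA effects with quantile normalization (0.09 log2, adjusted p = 0.0311). The cause was not tested. The counts of all genes called stayed within 1.5 times their value in all 10 comparisons. With the replicate number as a block, 1 member call changed, that of Igfbp5 with MLX shRNA (0.06 log2, adjusted p = 0.0542). Pairing by number had only weak support in the data. Of 30 same-numbered pairs 4 correlated above 0.1, as did 3 of 60 pairs with different numbers, and 7 of 15 libraries were closest to their own number. With an offset of 0.1, differences of Igfbp4 that involve MLX shRNA grew, to -1.58 against the GFP control, -1.14 against MLX-WT and -2.56 against MLX-DN, and the difference of MLX-WT and MLX shRNA effects to 1.77, as the offset of 2 compresses low values. Median centring moved Igfbp5 with MLX-WT against NT shRNA from -0.17 to -0.10. With the stricter filter, called ligand and receptor genes numbered 3, 3 and 1 in the 3 comparisons with each construct's own control, because fewer of them were tested. Of the 3 genes most like each member, 0 to 1 remained by Spearman's rho and 0 to 2 by correlation over the 5 group means.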

Other observations

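Of 15 tested partners of the binding proteins at the cell surface and in the matrix, 1 was higher and 12 were lower with MLX shRNA than with NT shRNA, where 30.8% of all tested genes were higher and 39.3% lower. The median was -0.21 log2 beside -0.02 for all tested genes. With MLX-WT against the GFP control 3 were higher and 9 lower (27.6% and 42.7% of all tested genes), with a median of -0.10 beside -0.05. With MLX-DN the counts were 6 and 7 (32.6% and 48.8%), with a median of -0.01 beside -0.08. Compared with NT shRNA, 3 were higher and 9 lower in MLX-WT cells, and 4 and 7 in MLX-DN cells, where 69.9% and 69.7% of all tested genes were called. The medians there were -0.15 and -0.05, beside -0.06 and -0.08 for all tested genes. Spp1 (osteopontin, a matrix ligand of integrins) fell from 1019 ± 19.5 to 565 ± 10.6 FPKM with MLX shRNA (-0.85 log2, adjusted p = 1.33e-13). Fn1 (fibronectin), at 908 ± 23.4 FPKM in GFP control cells, was lower in MLX-WT cells, at 516 ± 12.6 (-0.81 log2, adjusted p = 1.40e-12). Thbs1 (thrombospondin 1) rose by 0.71 with MLX-DN and was at -0.01 with MLX-WT against the GFP control (adjusted p = 6.41e-14 and 0.715), and against NT shRNA these values were 0.22 and -0.50.

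Of 27 tested genes that carry signals from the IGF-1 receptor, 7 rose and 14 fell in MLX-WT cells, 9 and 12 in MLX-DN cells, and 8 and 13 in MLX shRNA cells, each against its own control. The shares called, 21 of 27 in each, stand beside 70.3%, 81.4% and 70.1% of all tested genes, and the medians of -0.15, 0.00 and -0.03 log2 beside -0.05, -0.08 and -0.02. Relative to NT shRNA, 5 were higher and 20 lower in MLX-WT cells, and 3 and 14 in MLX-DN cells, where 69.9% and 69.7% of all tested genes were called. The medians there were -0.18 and -0.09, beside -0.06 and -0.08 for all tested genes. Foxo1, the transcription factor that IGF signalling keeps out of the nucleus, fell in MLX-WT, MLX-DN and MLX shRNA cells against their own controls. The falls were 0.88, 0.88 and 0.69 log2 (adjusted p = 1.11e-12, 5.51e-13 and 2.44e-11). Foxo1 stood at 8.83 ± 0.369 FPKM in the GFP control and 5.16 ± 0.0435 with NT shRNA, and at 2.45 ± 0.138 with MLX shRNA. Pik3r2, a regulatory subunit of PI3-kinase, fell by 0.49, 0.85 and 0.36, while the catalytic subunit gene Pik3cb rose by 0.47 and 0.74 with MLX-WT and MLX-DN and fell by 0.16 with MLX shRNA. Between the controls, Pik3r2 was lower with NT shRNA (21.1 ± 0.286 FPKM) than with GFP (27.9 ± 0.431). NT shRNA stood at 7.49 ± 0.366 FPKM of Pik3cb and MLX-WT at 7.64 ± 0.119, so against NT shRNA the value for MLX-WT was 0.02 (95% interval -0.05 to 0.10, adjusted p = 0.555) and that for MLX-DN 0.30 (adjusted p = 2.38e-06).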
